A study of Mus musculus with 13 samples.

Results

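The 7 JNK knockout cell lines of this series, AB144, AB145, AB164, AB165, AB209, AB327 and AB329, were examined for how far they differ from one another. They were chosen by their genotype label alone and are 7 of the 13 lines sequenced. The other 6 lines carry the wild-type label and enter no value below. Across the 10500 of 23845 genes with a mean of at least 5 CPM (counts scaled to a common library size) over the 7 lines, the spread was taken as the standard deviation (SD) of log2 CPM. Programs, meaning lists of genes with a shared function, were then followed from line to line.

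Each line was grown from a mammary gland tumor of an FVBN/J mouse, in a study of HER2-driven breast cancer. Tumor cells were first kept on collagen I with little serum. After early passages they were moved to ordinary dishes with more serum, EGF and insulin. All 7 lines share genotype, strain and culture. The labels do not give the knockout alleles, what drives the deletion, the passage at harvest, the day of RNA extraction, or whether any pair of lines came from one animal. One library was made per line, so a difference between lines holds both the difference between tumors and the variation of culture and library. No line was sequenced repeatedly. The p-values below say only how often a random pairing of these 7 lines gives as strong a correlation.

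JNK, the c-Jun N-terminal kinase, is a stress-activated protein kinase that phosphorylates c-Jun and related transcription factors and is encoded by Mapk8, Mapk9 and Mapk10. The mammary epithelium is built of an outer basal (myoepithelial) layer, which contracts and sits on the basement membrane through hemidesmosomes, and an inner luminal layer, which makes milk. Carcinoma cells can lose the junctions of epithelium and gain genes of mesenchyme, a shift known as the epithelial-mesenchymal transition.

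The targeted genes were read first. Mapk8, which encodes JNK1, stood at 4.81, 6.01, 4.94, 6.06, 4.21, 8.35 and 5.27 CPM in the lines in the order given above. Mapk9, which encodes JNK2, stood at 24.3, 21.7, 19.4, 18.9, 8.65, 22.4 and 17.7 CPM in the same order. Transcripts of both were thus counted in each of the 7 lines, with AB209 lowest for both. The JNK pathway list as a whole scored -0.43 in AB209 relative to the mean of the lines, and -0.14 once a trend with gene length in that library, described below, was removed. Mapk10, the neuronal JNK3, had 9 counts over the 7 lines together. A gene total holds reads from outside a deleted exon, and the labels do not say which exons were removed, so these totals do not check the genotype. Erbb2, the gene of HER2, ranged from 56.1 CPM in AB145 through a median of 117 to 229 CPM in AB327.

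The 7 libraries held 38298602 to 45586413 expected counts, with 12685 to 13434 genes at 10 counts or more. A check for libraries deposited more than once found none: the most alike, AB144 and AB329, gave a chi-square of 200.2 for each gene against counting noise. AB209 differed from the rest in its relation to gene length. Its log2 CPM fell by 0.34 for each doubling of gene length relative to the mean of the lines, beside slopes of -0.01 to 0.12 in the other 6. With the genes in 10 equal groups by length, its shortest group stood 0.74 above the median line and its longest at -0.59, both on the log2 scale. Epithelial markers were present in all lines, with summed levels of 1277 CPM in AB145 and 4172 to 5664 CPM in the other 6. Markers of 10 fibroblast genes summed to 54.7 CPM in AB145, 26.7 in AB164 and 2.99 to 12.2 in the rest. Leukocyte markers summed to 2.51 to 12.8 CPM, endothelial markers to 3.13 to 8.47 CPM and adipocyte markers to 0.123 to 0.933 CPM. Pericyte markers summed to 46.1 to 169 CPM and Schwann cell markers to 44.7 to 84.1 CPM. Skeletal muscle markers summed to 27.4 CPM in AB145, 30.9 in AB164 and 2.49 to 9.93 in the rest. In these 3 lists 2 of 7, 1 of 7 and 1 of 9 genes had a mean of at least 5 CPM. In these bulk cultures fewer cells of a type and less RNA per cell cannot be told apart.

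Most genes differed little between the lines. The median SD of log2 CPM was 0.40, and the middle part of the genes, from the 25th to the 75th percentile, lay between 0.28 and 0.61. Counting error alone would give a median SD of 0.04, so the spread of a typical gene was well above sampling noise. Genes called variable here had an SD of at least 1, a typical deviation of one doubling, and numbered 1244 (11.8% of genes). Genes called constant had an SD of at most 0.2 and numbered 995 (9.48%). The constant count turned on AB209: without that line 2050 genes were constant, and 1796 were constant when the trend with gene length was removed from every line. Variable genes tended to be weakly expressed. With the genes in 4 equal groups by mean CPM, 24.3% of the lowest group were variable, against 5.83% of the highest, and the constant share went the other way, from 3.47% to 13.9%. AB145 was the highest or the lowest line for 68.2% of the variable genes; of all genes it was the lowest line for 20.5% and the highest for 19.4%, and AB209 for 23.5% and 25.8%. Without AB145, 921 of the same 10500 genes (8.77%) were variable, and 879 of these were among the 1244.

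**Figure D1:**
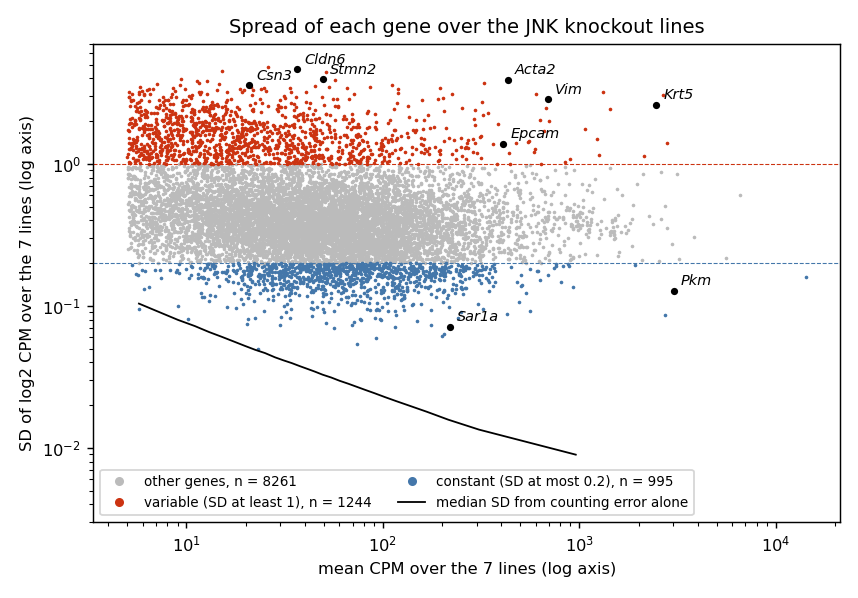
SD of log2 CPM over the 7 lines (log axis) against mean CPM (log axis), 1 point per gene. The 1244 variable genes are red, the 995 constant genes blue, and the black line gives the median SD that counting error alone would leave at each level; nearly all genes lie above it.

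The widest spreads belonged to genes that were on in some lines and off in others. Pdpn, which encodes the membrane glycoprotein podoplanin, had the largest SD of all, 4.84, with 123 CPM in AB145, 36.6 in AB165 and 20.9 in AB164 but 0 counts in AB144 and AB327. Cldn6, a claudin of embryonic epithelium, reached 243 CPM in AB164 and 11.3 in AB165 and was at 0 to 0.781 CPM elsewhere. Stmn2, a neuronal microtubule regulator, was likewise led by AB164, at 324 CPM against 0.0736 to 13.1. Sftpd, a secreted lectin of mucosal surfaces, stood at 250.2 CPM in AB144 and 136 in AB329, with the other 5 lines at 0.0512 to 6.71. Cyp2f2, a xenobiotic-metabolizing cytochrome P450, was an abundant transcript in AB329 (873 CPM) and AB209 (602) and nearly missing from AB145 (0.691). Each of these genes has its own pattern of lines, so no single split of the lines describes them all. Avpr1a, a vasopressin receptor, was led by AB327 at 59.2 CPM. Grik3, a glutamate receptor subunit, passed 1 CPM in AB145 alone, at 89 CPM against 0 to 0.274.

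In all, 48 genes (0.457% of those tested) had at most 3 counts in one line or more and at least 20 CPM in another. AB145 was at that floor for 22 of them, AB209 for 16 and AB327 for 15, and AB164 for 2. Pax9, a paired-box transcription factor, stood at 37.8 CPM in AB145 and 2.4 in AB144, and at 0 to 0.331 CPM in the other 5 lines. Foxi1, a forkhead factor, was expressed in AB209 (22.1 CPM) and AB329 (18.3 CPM) and stood below 1 CPM in the rest, up to 0.957. The following were singled out after their values were seen, as genes near zero in a single line while every other line had at least 5 CPM. Arhgap8, which encodes a GTPase-activating protein, had 0 counts in AB145 and 9.13 to 30.8 CPM in the other 6, and Hpn, the membrane protease hepsin, had 2 counts there beside 5.52 to 29 CPM. The noncoding gene 4930412O13Rik also had 0 counts in AB145. Lrch4 had 0 counts in AB209 and 9.92 to 19.5 CPM elsewhere.

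The first principal component of the 500 most variable genes carried 50.8% of their variance and set AB145 (76.1) apart from the other 6 lines, of which AB164 lay nearest to it (19.7) and AB209 farthest (-35.3). The second component carried 18.5% and ran from AB144 (-33.3) to AB327 (38.7). In the space of those genes AB145 lay at a mean distance of 99.5 from the other lines, whose own means were 64.8 to 73.9. The 6 lines without AB145 lay at a mean distance of 62.0 from one another, so they were no compact cluster either. Genes with the strongest weights toward AB145 were Grik3, Jph2 (junctophilin of muscle), Dpysl3 (a cytoskeletal regulator), Tgfb1i1 (a focal adhesion adaptor), Ndn (necdin) and Bcat1 (a branched-chain aminotransferase), besides Pdpn and Fstl1. Dpysl3, for example, measured 297 CPM in AB145 and 0.21 to 11.3 in the others, and Tgfb1i1 135 CPM against 0.0526 to 10.7. Toward the opposite end lay Bpifb4, Cyp2f2, Klk1b26, Cyp2d9, Cyp2d10, Pglyrp1, Krt4 and Arhgap8, several of which belong to families of near-identical copies whose counts may be shared between copies.

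**Figure D2:**
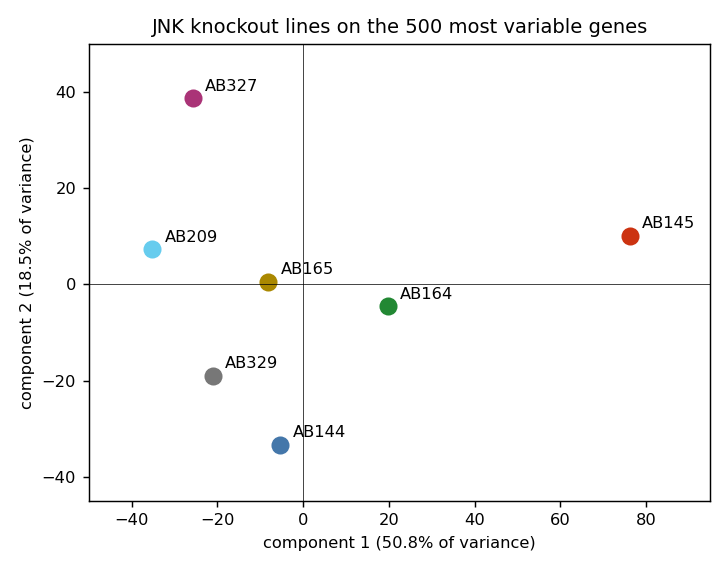
The 7 lines on the first and second principal components of the 500 most variable genes (centred log2 CPM), 1 point per line. AB145 stands at 76.1 on component 1; AB144 (-33.3) and AB327 (38.7) mark the ends of component 2.

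The spread of epithelial junction genes turned on AB145. Of its 29 measured members 24 were variable (11.8% of all genes), with a median SD of 1.42 beside 0.40 for all genes, and 25 were lowest in AB145, the lowest line for 20.5% of all genes. The program score, the mean log2 CPM of the members relative to the mean of the 7 lines, was -2.56 in AB145 and 0.15 to 0.61 in the other 6. Without AB145 only 5 of the 29 were variable (8.77% of all genes). Epcam, the epithelial cell adhesion molecule, stood at 39.9 CPM in AB145 and 262 to 598 CPM in the others. Cdh1, which encodes E-cadherin, stood at 90.1 against 305 to 716 CPM. Both groups of values leave a gap between AB145 and the next line. Claudin transcripts differed more, with Cldn7 at 4.53 CPM in AB145, 37.6 in AB327 and 138 to 348 in the other 5, and Cldn3 at 11.3 against 199 to 469.7. The clathrin adaptor Ap1m2, which sorts proteins to the basolateral side, had 4.5 CPM in AB145, 30.2 in AB327 and 73.2 to 197 elsewhere. Crb3, a polarity protein, and Rab25, an epithelial small GTPase, were at 1.1 and 7.57 CPM in AB145 and at 9.35 to 34.2 and 62.5 to 195 CPM in the other lines. Not every junction gene was low in AB145: F11r, which encodes junctional adhesion molecule A, spanned only 111 to 175 CPM, and Cdh3, which encodes P-cadherin of basal cells, was highest in AB145 at 314 CPM.

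Several regulators that hold or repress the epithelial state also set AB145 apart. Grhl2, an activator of junction genes, was at 9.98 CPM in AB145 and 73.2 to 138 in the others, and the splicing factor Esrp1 at 14.7 against 124 to 217. Zeb1, a repressor of Cdh1, measured 78.1 CPM in AB145, 12.9 in AB164, 11.9 in AB327 and 1.26 to 2.66 in the rest. Its relative Zeb2 measured 48.8 CPM in AB145, 3.14 in AB164 and 0.13 to 0.319 in the other 5. Outside AB145 the levels did not line up: AB327, with Zeb1 at 11.9 CPM, had the highest Cdh1 (716 CPM) and Epcam (598 CPM). A link between these regulators and the junction genes was not tested. The repressors were not uniformly highest in AB145, since Snai1 was led by AB164 (30.4 CPM), Snai2 by AB144 (26.3 CPM) and Twist1 by AB209 (47.5 CPM).

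ZEB and SNAI factors bind the E-box CACCTG, and the promoters of the junction genes were searched for it on both strands, so that CAGGTG counts as the same box on the opposite strand. RefSeq promoter windows of the GRCm38.p6 assembly, 250 bases before to 50 after a start site, were found for 18 of the 29 members. The box was present in 14 of the 18 (77.8%), against 20.4% of all tested genes counted the same way and 20.2% of the 32851 windows. The members with the box had a median SD of 1.57 and the 4 without it 1.38. F11r, which differed little between the lines (SD 0.26), is among those with the box. A match is a description of the letters and not of binding. The 250 bases upstream of 4 members with the box show how often and where it (in capitals) recurs before a listed start. These 4 were taken from the members whose levels in AB145 are given above. Cldn3 and F11r, with 1 box each, and Rab25 also have levels or ranges given above and are not among the 4. The windows of Cldn7 and Crb3 belong to starts within the annotated gene, and both genes have a second start listed. Cldn7 lies at chr11:69965171-69965420 on the plus strand, Ap1m2 at chr9:21312334-21312583 on the minus strand, Crb3 at chr17:57061951-57062200 on the plus strand and Epcam at chr17:87635729-87635978 on the plus strand.
Cldn7: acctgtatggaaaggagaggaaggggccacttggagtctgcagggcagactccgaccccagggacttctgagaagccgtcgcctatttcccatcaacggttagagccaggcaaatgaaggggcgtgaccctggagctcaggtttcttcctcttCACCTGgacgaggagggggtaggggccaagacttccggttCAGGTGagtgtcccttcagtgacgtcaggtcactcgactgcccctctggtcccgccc
Ap1m2: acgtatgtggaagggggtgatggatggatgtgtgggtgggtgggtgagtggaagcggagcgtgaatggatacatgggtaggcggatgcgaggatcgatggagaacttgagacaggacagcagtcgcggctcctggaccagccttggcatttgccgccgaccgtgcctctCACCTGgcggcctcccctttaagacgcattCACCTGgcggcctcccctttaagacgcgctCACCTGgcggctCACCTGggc
Crb3: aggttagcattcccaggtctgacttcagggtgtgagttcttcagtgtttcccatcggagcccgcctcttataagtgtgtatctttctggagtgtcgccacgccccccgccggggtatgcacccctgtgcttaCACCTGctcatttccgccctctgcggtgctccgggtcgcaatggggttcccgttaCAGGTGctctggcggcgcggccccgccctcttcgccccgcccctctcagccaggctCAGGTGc
Epcam: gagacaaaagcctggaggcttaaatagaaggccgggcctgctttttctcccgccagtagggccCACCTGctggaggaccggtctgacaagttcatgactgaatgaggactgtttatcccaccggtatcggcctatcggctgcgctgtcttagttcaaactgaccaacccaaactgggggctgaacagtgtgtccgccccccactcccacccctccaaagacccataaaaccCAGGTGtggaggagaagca

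Mesenchymal genes were highest in AB145, with AB164 second. Of 24 listed genes 21 reached a mean of 5 CPM. Of the 21 measured members 17 were variable (11.8% of all genes) and 15 were highest in AB145, the highest line for 19.4% of all genes. A member near zero elsewhere passes that limit only through its high line, so these counts partly restate the filter. The program score was 2.84 in AB145, 1.11 in AB164 and -1.18 to -0.40 in the rest. Vim, which encodes the intermediate filament vimentin, measured 3947 CPM in AB145, 691 in AB164 and 17.9 to 66.1 in the other 5 lines. Fn1, fibronectin, measured 3073 and 2767 CPM in the same pair and 117 to 605 elsewhere. Cdh2, N-cadherin, was highest in AB164 at 77.7 CPM, with 55.4 in AB145 and at most 8.95 in any other line. AB164 thus carried mesenchymal transcripts while its junction score, 0.15, stayed with the epithelial lines. Prrx1, a mesenchymal homeobox gene, had the same pair on top (107 and 93 CPM, others 3.53 to 16.1). Without AB145, 16 of the 21 members were variable (8.77% of all genes), so this program, unlike the junctions, also separated the other 6 lines. Foxc2, a forkhead factor, belonged to AB145 (52.3 CPM) and AB144 (14.7), and Tnc, the matrix protein tenascin C, was highest in AB144 (832) and AB145 (787) and lowest in AB327 (4.25).

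Collagens and other matrix genes were highest in the same pair of lines, with 10 of 14 members variable (11.8% of all genes). Scores were 1.67 in AB145, 1.39 in AB164 and -1.03 in AB144, the lowest. Fbn1, the microfibril protein fibrillin, measured 329.7 CPM in AB145, 25.1 in AB164 and 0.245 in AB144. Col6a1, a chain of collagen VI, was highest in AB164 at 95.9 CPM, followed by AB145 at 60.9 and AB327 at 35.5. Lox, the enzyme that cross-links collagen, stood at 1209 CPM in AB164 and within 147 to 184 in the other 6, so it marked AB164 alone. The summed fibroblast markers, 54.7 CPM in AB145 and 26.7 in AB164, moved with these programs, with 3 of the 10 at 3 counts or fewer in every line; their part in the result was not tested.

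**Figure D3:**
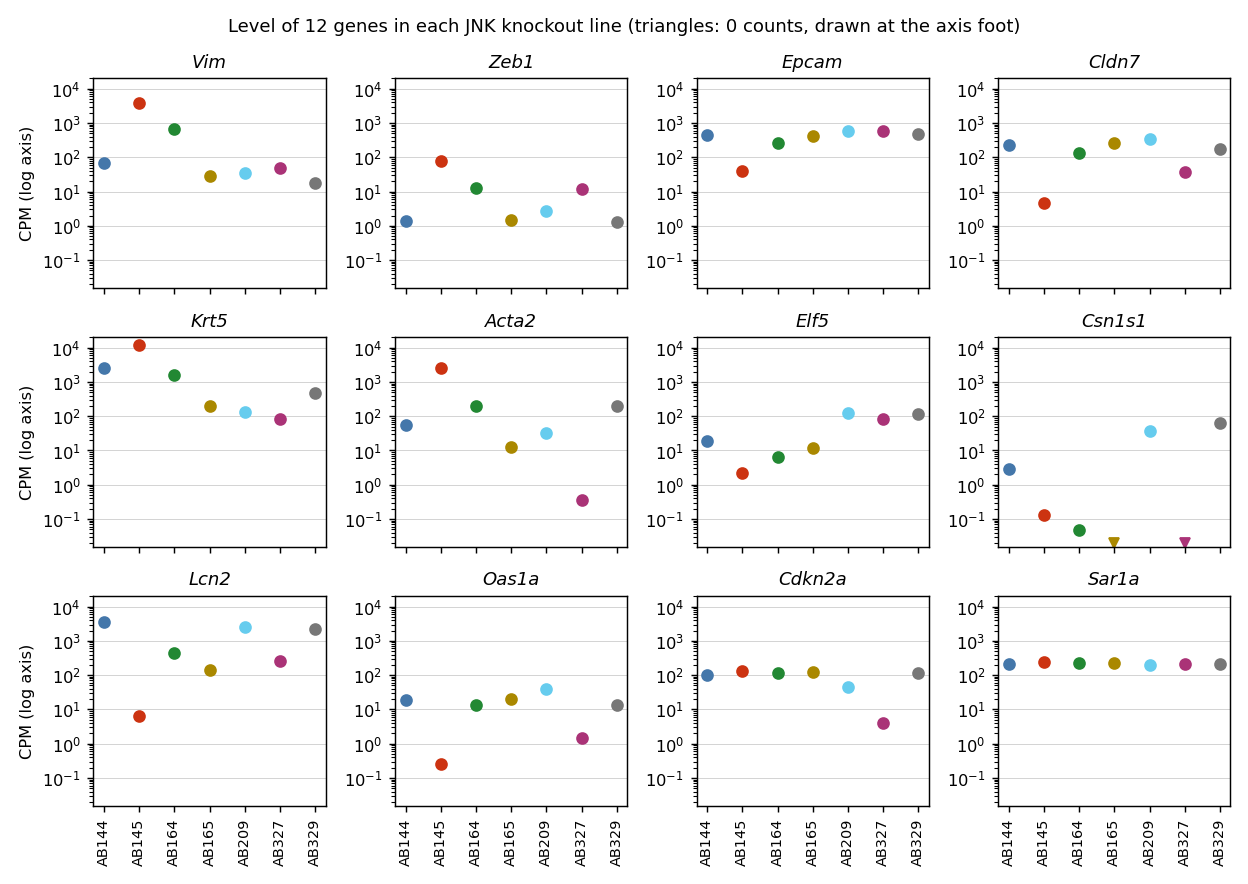
CPM (log axis) of 12 genes in each of the 7 lines, 1 point per line and no error bar because each line is 1 library; triangles are 0 counts. Vim and Zeb1 are highest and Epcam and Cldn7 lowest in AB145, Csn1s1 is high in AB209 and AB329, Cdkn2a is low in AB327, and Sar1a is nearly level.

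Basal genes also varied widely, but not as one block. All 7 basal keratins were variable (11.8% of all genes), and they were variable without AB145 as well (8.77% of all genes). Their score ran from -2.40 in AB165 through 1.59 in AB329 to 2.27 in AB145. Krt5, the main type II keratin of basal cells, measured 2608, 12112, 1646, 194, 133, 84.4 and 466 CPM from AB144 to AB329. Its partner Krt14 was lowest in AB165 (307 CPM), highest in AB145 (8141) and at 1668 to 3348 in the others. AB209 and AB327 therefore kept Krt14 near the median of 1962 CPM while their Krt5 stood at 133 and 84.4 CPM. Krt15 departed from both, at 163 CPM in AB144, 119 in AB329 and 2.39 to 15 elsewhere. Krt6b and Krt16, keratins of wounded or activated epithelium, were highest in AB145 (197 and 99.3 CPM) and AB329 (165 and 114 CPM). Krt6a and Krt6b are near-identical, so the division of counts between them is uncertain. Trp63, the p63 master regulator of basal cells, ran from 5.51 CPM in AB165 through a median of 43 to 237 in AB145.

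Contractile genes of myoepithelium were led by AB145. Of 15 listed genes 10 reached a mean of 5 CPM. All 10 were highest in AB145 (19.4% of all genes), and 6 were variable (11.8% of all genes). Members near zero in the other lines pass that limit only through AB145, so these counts partly restate the filter. Acta2, smooth muscle alpha-actin, measured 2519 CPM in AB145, 0.369 in AB327 and 12.7 to 202 in the other 5 lines. Myl9, a myosin light chain, ran from 0.391 CPM in AB327 to 145 in AB145, and Tagln, transgelin, from 0.848 in AB165 to 86.1 in AB145. The broadly expressed members spread far less: Smtn, smoothelin, spanned 73.7 to 185 CPM.

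Hemidesmosome genes, which anchor basal cells to laminin-332, had 9 of 10 members variable (11.8% of all genes) and 8 of 10 highest in AB145 (19.4% of all genes). The variable members numbered 4 without AB145 (8.77% of all genes) and 6 with the length trend removed. Col17a1, a transmembrane collagen of the hemidesmosome, ran from 8.68 CPM in AB209 to 1499 in AB145 with a median of 53.2. Itgb4, the integrin beta-4 chain, measured 2231 CPM in AB145 and 162 to 451 in the others. Itga3, an integrin chain that binds laminin, divided the lines into AB144, AB145, AB164 and AB165 (1078 to 1330.0 CPM) and AB209, AB327 and AB329 (254 to 372 CPM). The low score of AB209, -1.43, stood beside that library's lower values for long genes, and with the length trend removed it was -1.06, with AB327 lowest at -1.11.

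Milk genes were highest in AB329 and AB209. The 19 milk and secretory genes scored 2.06 in AB329, 1.58 in AB209, 0.80 in AB144 and -2.44 in AB145. Of these genes 14 were variable (11.8% of all genes), and 11 without AB145 (8.77% of all genes). Csn1s1, the casein of milk, measured 65 CPM in AB329, 38.1 in AB209 and 2.8 in AB144, with 0 to 0.128 in the other 4. Csn3, kappa-casein, measured 123 CPM in AB209, 20.8 in AB329 and 0.0981 to 1.13 elsewhere. Both caseins were therefore at or near zero in most lines. Ltf, the iron-binding milk protein lactoferrin, was high in 3 lines, AB329 (9840.5 CPM), AB144 (6108) and AB209 (2247), and at 55.6 to 248 in the rest. Lcn2, the siderophore-binding lipocalin, was high in the same 3 lines (2282 to 3579 CPM) and at 6.52 CPM in AB145. Elf5, the transcription factor of secretory alveolar cells, measured 121 CPM in AB209, 119 in AB329 and 81.4 in AB327, against 2.15 to 18.6 in the other 4. AB327 hence had Elf5 but little casein. Kit, a receptor of luminal progenitors, was again a gene of AB209 (14.7 CPM) and AB329 (17.6 CPM), with 0.0256 to 1.91 in the rest, as Foxi1 was. The prolactin receptor Prlr ran from 1.2 CPM in AB145 to 82 in AB329.

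Luminal keratins did not share this pattern. Krt8 spanned 343 to 1690.5 CPM with AB145 lowest, and Krt18 spanned 550.2 to 1186 CPM with an SD of 0.38. Krt7 measured 19.9 CPM in AB145 and 941 to 2487 in the other lines. Gata3, the luminal lineage factor, measured 2.87 CPM in AB145 and 44.8 to 88.9 in the others, so AB145 kept Krt18 and part of Krt8 but little Krt7 or Gata3.

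**Figure D4:**
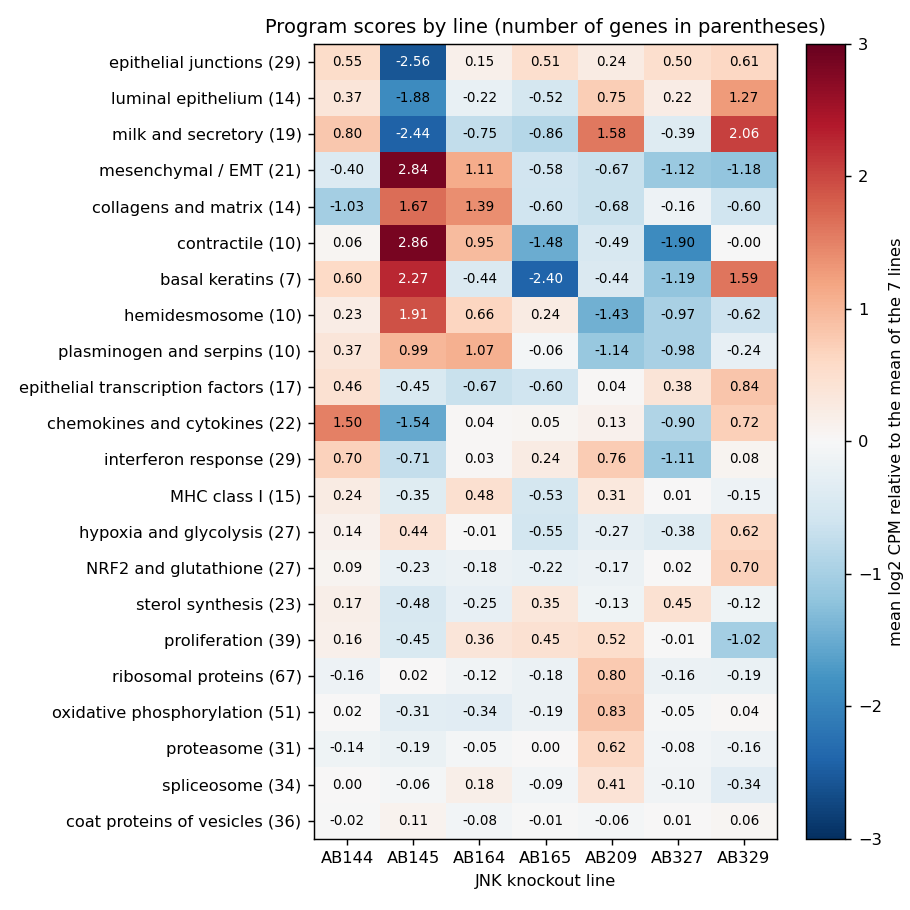
Scores of 22 programs (rows, with the number of measured genes) in each of the 7 lines (columns), as the mean log2 CPM of the members relative to the mean of the 7 lines. AB145 has the lowest epithelial junction score (-2.56) and the highest mesenchymal score (2.84), AB329 the lowest proliferation score (-1.02), and AB209 the highest ribosomal protein score (0.80).

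Inflammatory genes set AB144 against AB145 and AB327. Of 37 listed chemokine and cytokine genes 22 reached a mean of 5 CPM. Of these 22, 14 were variable (11.8% of all genes) and 14 were highest in AB144, the highest line for 7.96% of all genes. Members near zero elsewhere pass that limit only through their high line, so these counts partly restate the filter. Scores were 1.5 in AB144, -0.90 in AB327 and -1.54 in AB145. Csf3, the granulocyte colony-stimulating factor, measured 265 CPM in AB144, 2.08 in AB327, 0.563 in AB145 and 35.2 to 90.2 in the other 4. Cxcl5, a neutrophil-attracting chemokine, measured 2043 CPM in AB144 and 1327 in AB329, with 51.2 in AB145. Il1a, the alarmin interleukin 1 alpha, measured 187 CPM in AB144 and 0.282 to 11.3 in every other line. The NF-kB subunit genes Nfkb2 and Relb, in contrast, had SDs of 0.24 and 0.28, below the median of all genes.

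The interferon program was lowest in AB327. Of 29 members 11 were variable (11.8% of all genes). Lowest in AB327 were 15 and in AB145 11, which were the lowest lines for 13.6% and 20.5% of all genes. Scores were -1.11 in AB327, -0.71 in AB145, 0.70 in AB144 and 0.76 in AB209. Oas1a, a double-stranded RNA sensor from a family of close copies, measured 0.256 CPM in AB145, 1.43 in AB327 and 13.2 to 39.7 in the other 5. Ifit1, an RNA-binding antiviral protein, measured 0.759 CPM in AB327 and 2.79 to 14.7 in the others. Isg15, a ubiquitin-like modifier, measured 1.08 against 4.94 to 14.4 CPM, and the transcription factor Irf7 1.17 against 3.15 to 30.2. AB327 was below every other line for Ifit1, Isg15 and Irf7. Other members were level: Eif2ak2, the kinase PKR, spanned 49.8 to 74.4 CPM and was the only constant member, and the RNA sensor Ifih1 spanned 10.2 to 16.1 CPM. The MHC class I program was less spread (1 of 15 variable, beside 11.8% of all genes). It did not single out AB327, with scores of -0.53 in AB165 to 0.48 in AB164.

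The interferon-stimulated response element, searched as 2 copies of GAAA with any 2 bases between them, on both strands and with overlapping matches counted, was found in the RefSeq promoter windows of 14 of the 23 members that have one (60.9%). The share was 3.42% of tested genes counted the same way and 3.44% of all windows. Members with the element had a median SD of 0.78 and the 9 without it 0.55, and the level gene Eif2ak2 is among those with it. The 250 bases upstream of 3 genes whose values are given above show the element in capitals, as a merged block where matches overlap. Oas1a lies at chr5:120907526-120907775 on the minus strand, Ifit1 at chr19:34640639-34640888 on the plus strand and Isg15 at chr4:156200819-156201068 on the minus strand, all in GRCm38.p6.
Oas1a: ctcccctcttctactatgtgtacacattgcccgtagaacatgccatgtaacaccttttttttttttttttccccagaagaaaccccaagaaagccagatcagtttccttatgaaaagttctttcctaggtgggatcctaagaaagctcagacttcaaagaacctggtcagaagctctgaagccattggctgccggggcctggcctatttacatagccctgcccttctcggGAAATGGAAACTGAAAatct
Ifit1: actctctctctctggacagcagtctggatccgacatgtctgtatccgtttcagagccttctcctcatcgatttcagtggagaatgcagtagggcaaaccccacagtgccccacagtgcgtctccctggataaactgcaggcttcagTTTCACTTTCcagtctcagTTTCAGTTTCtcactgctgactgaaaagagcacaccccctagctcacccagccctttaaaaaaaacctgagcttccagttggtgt
Isg15: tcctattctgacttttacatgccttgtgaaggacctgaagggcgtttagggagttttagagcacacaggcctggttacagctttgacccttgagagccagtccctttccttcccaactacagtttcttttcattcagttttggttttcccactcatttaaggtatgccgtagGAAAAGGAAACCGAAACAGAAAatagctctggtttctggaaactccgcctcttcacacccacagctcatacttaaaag

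Proliferation genes moved together over the lines, within a moderate range. None of the 39 members was variable or constant, their median SD was 0.62, and their mean pairwise correlation over the 7 lines was 0.80, beside 0.00 for all gene pairs. AB329 was lowest for 35 of the 39 (lowest for 14.1% of all genes) and scored -1.02, with AB145 next at -0.45 and the others at -0.01 to 0.52. Top2a, topoisomerase II alpha, measured 117 CPM in AB329 and 213 to 468 in the rest. Foxm1, the transcription factor of G2 and mitosis, measured 26.7 against 51.5 to 114, and Mki67, which encodes Ki-67, 52.2 against 94.1 to 169. Birc5, survivin, was lowest in AB145 (32.8 CPM) and AB329 (37.5 CPM) and highest in AB209 (156 CPM). Without AB329 the SD of the score was 0.36 in place of 0.56. Targets of p53 were less spread, with none of 24 variable and a median SD of 0.48, and Trp53 itself was nearly level at 206 to 298 CPM.

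Metabolic and stress programs varied in part of their members. Of 27 hypoxia and glycolysis genes 7 were variable (11.8% of all genes) and 12 were highest in AB145 (19.4% of all genes), with scores of 0.62 in AB329, 0.44 in AB145 and -0.55 in AB165. Slc16a3, the lactate exporter MCT4, measured 87.4 CPM in AB145 and 0.846 in AB327, around a median of 16.4. Pkm, pyruvate kinase, was constant at 2650.3 to 3381 CPM (SD 0.13). NRF2 and glutathione genes were highest in AB329 for 15 of 27 members (9.92% of all genes), with a score of 0.70 there and -0.23 to 0.09 elsewhere. Without AB329 the SD of the score was 0.14 in place of 0.33. With the length trend removed the scores were 0.71 in AB329, 0.09 in AB144 and -0.48 in AB209, so the other lines were then less level. Gclc, the catalytic subunit of glutamate-cysteine ligase, measured 509 CPM in AB329, 310.1 in AB144 and 80.7 to 184 in the others. Nqo1, a quinone reductase, was highest in AB329 (84.1 CPM) and AB145 (79.4 CPM). Sterol synthesis genes had a median SD of 0.42, close to that of all genes, and AB145 was lowest for 12 of 23 (20.5% of all genes); Insig1, a sterol-sensing retention protein, measured 22.7 CPM there and 53.8 to 126 elsewhere.

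The JNK pathway and the ERBB family were examined because of the genotype and the tumor model. Of 22 JNK pathway genes 2 were variable (9.09%, beside 11.8% of all genes) and 3 constant (13.6%, beside 9.48%), and the median SD of 0.43 was close to that of all genes. Without AB145 none of the 22 was variable, beside 8.77% of all genes, a small difference in a list of 22. Mapk8ip1, the scaffold JIP1, ranged from 2.48 CPM in AB145 to 25.7 in AB327 and was variable, as was Map3k6, an upstream kinase gene led by AB145 (27.3 CPM). Map2k7, the JNK kinase MKK7, was constant at 57.8 to 73.7 CPM. Jun, the substrate after which JNK is named, was lowest in AB209 (15.3 CPM) and AB165 (17.2) and at 34.7 to 51.1 in the others. Among 15 ERBB receptors and ligands 4 were variable, beside 11.8% of all genes. Erbb3, the partner of HER2, measured 4.02 CPM in AB145, 13.5 in AB209 and 30.8 to 124 in the others. Egfr was highest in AB145 at 174 CPM and lowest in AB209 at 23.9, and the ligand gene Nrg1 ran from 1.35 CPM in AB327 to 46.3 in AB145. AB145 was thus lowest for Erbb2 and Erbb3 and highest for Egfr and Nrg1. Of 23 Wnt genes 11 were variable (11.8% of all genes), and 7 without AB145 (8.77% of all genes). Wnt7a measured 62.4 CPM in AB165 and 0.563 to 7.7 elsewhere. Wnt5a was led by AB164 (157 CPM), and the secreted Dkk3 by AB164 (43.1 CPM) and AB145 (19 CPM).

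At the other end stood genes that hardly differed between the lines. Among vesicle coat genes 9 of 36 were constant (9.48% of all genes) and none was variable, and the median SD was 0.23. Sar1a, the GTPase that starts coat assembly at the endoplasmic reticulum, spanned 203 to 238 CPM with an SD of 0.07, and Copb2, a coatomer subunit, spanned 215 to 253 CPM. Constant members numbered 8 of 34 in the spliceosome, 6 of 32 in translation initiation, 4 of 36 among RNA polymerase II and Mediator genes and 3 of 25 of the usual reference genes. The shares of the last 2 lists are near that of all genes. Apart from 4921524J17Rik, a gene known only by its clone name (SD 0.05), the smallest spreads belonged to Rbm6, an RNA-binding protein gene (70.9 to 79 CPM, SD 0.05), Pkp4, plakophilin 4 (86.3 to 97.5 CPM), Zfp207, a spindle checkpoint protein gene (191 to 211 CPM), and Csnk2a1, casein kinase 2 alpha (188 to 215 CPM). Their 7 values overlap so closely that no line stands out, except that AB144 was lowest for Csnk2a1. Tradd, the adaptor of the TNF receptor, had a counting SD of 0.05 beside its SD of 0.08, so little spread beyond sampling could be seen at its depth.

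Ribosomal proteins, oxidative phosphorylation, mitochondrial ribosomes and the proteasome were moderately spread, and AB209 was the highest line for 64 of 67, 47 of 51, 38 of 39 and 30 of 31 members, beside 25.8% of all genes. Their scores in AB209 were 0.80, 0.83, 0.65 and 0.62. These are programs of short genes, and the slope with gene length in AB209 moved with them. After the length trend was removed the AB209 scores were 0.15, 0.22, 0.19 and 0.12. Constant members then numbered 32 of 67 ribosomal proteins, against 0 before, and 22 of 36 vesicle coat genes, against 9. Of all 10500 genes 1796 were then constant, against 995 before. The junction, mesenchymal, basal keratin and milk scores had nearly the same SD with and without that trend, 1.14 and 1.12 for the junctions and 1.57 and 1.49 for milk genes.

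Gene position, which played no part in choosing the lines, set AB327 apart on chromosomes 12 and 4. Of 10500 genes 10488 could be placed on the GRCm38 assembly, 9979 by symbol and 509 by transcript accession. On chromosome 12 the median of 373 genes in AB327 lay at -0.71 log2 CPM from the median line, and AB327 was the lowest line for 66.8% of them. On chromosome 4 the median of 666 genes lay at -0.49 and AB327 was lowest for 43.7%, against 13.6% of all genes. The other 6 lines had chromosome 12 medians of 0.00 to 0.05. The whole of chromosome 12 was low in AB327, with medians of -0.83 to -0.53 over windows of 50 neighbouring genes. On chromosome 4 the first part was lowest, down to -0.85 in the window from Casp8ap2 to Rusc2, and the later windows, from Inip onward, lay at -0.58 to -0.18. AB165 was also below the median line there, down to -0.43, as was AB209, down to -0.50. In the same later windows AB145 and AB164 lay above the median line, up to 0.45 and 0.36. Smaller shifts were seen elsewhere. AB165 was low along all of chromosome 7, with windows of -0.46 to -0.18, and had a median of 0.24 on chromosome 5, where the first windows were near 0. AB209 had a median of 0.24 on chromosome 7 with windows of -0.09 to 0.58. Its windows also reached 0.42 on chromosome 17 and -0.38 on chromosome 16. On chromosome 1 a single stretch from Sp140 to Farp2 was low in 3 lines, at -0.66 in AB327, -0.60 in AB209 and -0.40 in AB165. The trend with gene length, steep in AB209, was not removed from any of these position values. What underlies these shifts was not tested.

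**Figure D5:**
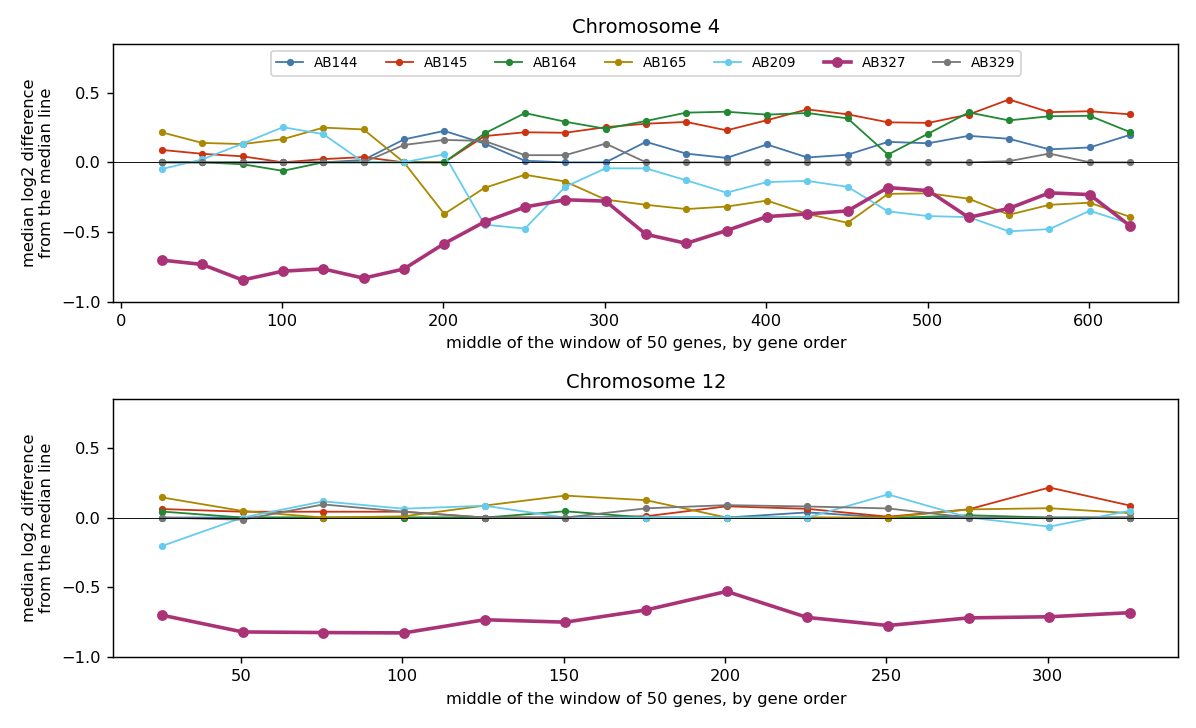
Median log2 difference from the median line over windows of 50 neighbouring genes along chromosome 4 (top) and chromosome 12 (bottom), 1 line of points per cell line. AB327 (thick) lies at -0.83 to -0.53 along chromosome 12 and reaches -0.85 on chromosome 4.

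Within the low stretch of chromosome 4 lay a run of 7 neighbouring measured genes that were at or below an eighth of the median line in AB327, from Mllt3 to Cdkn2b (GRCm38 chr4:87769925-89311032). Cdkn2a, which encodes the p16 and p19 tumor suppressors, measured 4.06 CPM in AB327, 44.1 in AB209 and 101 to 136 in the other 5. Cdkn2b, encoding the CDK inhibitor p15, measured 4.08 against 28.1 to 78.7 CPM. Mtap, a methionine salvage enzyme gene beside them, measured 16.9 against 135 to 441 CPM. The run also holds Mllt3, Focad, Klhl9 and Gm12603. Its 7 genes were picked by their low values in AB327, so that they were lowest there restates the choice. Other CDK inhibitor genes were not low in AB327: Cdkn1b, encoding p27, was highest there at 115 CPM, and Cdkn2c, encoding p18, measured 66.4 CPM against 15.2 to 64.3. A second run lay in the Hoxb cluster of chromosome 11, where AB145 had 0.256 CPM of Hoxb2, 0.23 of Hoxb3 and 0.128 of Hoxb4, while the other lines had 5.72 to 15.9, 10.1 to 33.6 and 10.6 to 25.6 CPM. These homeobox genes pattern the body axis. No other run of 3 or more neighbours met the same limit in any of the 7 lines.

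Which programs varied together was asked over 16 programs, giving 120 pairs. With the exact two-sided permutation test over the 5040 pairings of 7 lines, no pair passed a Benjamini-Hochberg adjusted p of 0.05 for Pearson's r or for Spearman's rho; 18 and 12 pairs had an unadjusted p under 0.05, and the lowest adjusted values were 0.131 and 0.333. The closest pair was basal keratins with hypoxia and glycolysis genes, with r = 0.948 (exact permutation p = 0.00218, adjusted 0.131) and rho = 0.964 (exact permutation p = 0.00278, adjusted 0.333). It gave r = 0.930 without AB145 and AB329, the 2 lines farthest from the median of the basal keratin score, and 0.956 without AB145 alone. In each pair the score of only 1 of its programs decided which 2 lines were left out as farthest. Contractile genes ran against sterol synthesis (r = -0.910, exact permutation p = 0.00377, adjusted 0.143; rho = -0.857, exact permutation p = 0.0238, adjusted 0.476), with r = -0.768 without the 2 farthest lines and -0.866 without AB145. Transcription factors of stratified epithelium, a list that includes Trp63, Grhl2 and Elf5, ran with NRF2 and glutathione genes (r = 0.842, exact permutation p = 0.00218, adjusted 0.131; rho = 0.857, exact permutation p = 0.0238, adjusted 0.476), with r = 0.922 without AB164 and AB329 and 0.824 without AB145. In these 3 pairs r kept its sign without the farthest lines, and none passed the adjusted threshold.

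Relations of the junction program rested on few lines. Junction and mesenchymal scores had r = -0.901 (exact permutation p = 0.0101, adjusted 0.202) and rho = -0.679 (exact permutation p = 0.110, adjusted 0.526), but r was -0.253 without AB145 and AB164 and -0.734 without AB145. Mesenchymal and hemidesmosome scores had r = 0.882 (exact permutation p = 0.00476, adjusted 0.143; rho = 0.821, exact permutation p = 0.0341, adjusted 0.480), with r = 0.847 without AB145 and AB209 and 0.702 without AB145. Proliferation ran against hypoxia and glycolysis (r = -0.825, exact permutation p = 0.0187, adjusted 0.226; rho = -0.714, exact permutation p = 0.0881, adjusted 0.481), and r was -0.796 without AB145 alone but -0.179 without both AB145 and AB329, so this relation rested on that pair of lines together. Mesenchymal and collagen scores, whose lists share 1 gene, had r = 0.884 (exact permutation p = 0.0298, adjusted 0.270; rho = 0.357, exact permutation p = 0.444, adjusted 0.902), and r turned to -0.762 without AB145 and AB164. Interferon and chemokine scores had r = 0.799 (exact permutation p = 0.0337, adjusted 0.270; rho = 0.786, exact permutation p = 0.0480, adjusted 0.480) with r = 0.752 without AB145 and 0.378 without AB145 and AB327. Within programs, members kept together to different degrees: the mean correlation of member pairs over the 7 lines was 0.63 for the junctions, falling to 0.21 without AB145, but 0.58 and 0.51 for the basal keratins and 0.45 and 0.40 for the interferon genes.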

How the data were processed

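RNA from 13 mammary tumor cell lines was sequenced as read pairs, per the labels' protocols; the 7 JNK knockout lines are analysed and the 6 columns of other lines were not read into any value. Expected counts and TPM per gene were deposited by the authors, who used cutadapt and RSEM with mm10 (GRCm38), per the submitters' processing notes; no source used here gives the annotation release or settings. Expected counts were rounded and scaled by TMM over the 7 lines with edgeR 4.0.16 (R 4.3.3), and log2 CPM used a prior count of 2. Program scores are means of log2 CPM centred per gene, over members with a mean of at least 5 CPM and for lists with 4 or more of them. A member near zero elsewhere can pass this limit only through its high line. Counts of variable members and of members highest in a line therefore partly restate the filter. With 1 group there is no differential test; correlations of scores used exact permutation (Python 3.11.15). Position came from the GRCm38 annotation. The 45 program lists and 8 marker lists were chosen with earlier results of these data known, so no list is independent evidence. Named genes are the targets, the 15 with the largest and smallest SD, up to 4 and 2 members per list, the 8 highest and lowest loadings per component, as a rule; a further 40 genes with values in the text, among them Vim, Epcam, Cdh1, Fn1 and Zeb1, lie outside it and were chosen by role after their values were seen. Alternatives were library size alone, DESeq2 1.42.0 or upper-quartile scaling, prior counts of 0.5 and 5, log2(TPM + 1) and log2(TPM + 0.1) from the deposited TPM, other filters and thresholds, and leaving out each line; removal of the length trend was added after the data were seen. The script was tested on simulated data.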

Additional observations from a re-analysis of the deposited data

Results flagged for a closer look

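Among 44 program scores, 8 had one line far from the other 6, by a gap, relative to the whole range, above Dixon's limit for 7 samples; chance flags about 1 in 20 groups, and 1248 of all genes (11.9%) met the same limit. Epithelial junctions were far lower in AB145 (-2.56), and the list of CDK inhibitors with the Cdkn2a neighbour Mtap and Rb1 in AB327 (-0.95). In AB327 3 of the 8 members of that list (Cdkn2a, Cdkn2b and Mtap) were lowest, beside 13.6% of all genes. S100 genes were far higher in AB145 (0.87) and NRF2 genes in AB329 (0.70). AB209 stood far above the rest for ribosomal proteins (0.80), oxidative phosphorylation (0.83), mitochondrial ribosomes (0.65) and the proteasome (0.62), beside its slope with gene length. Dixon's limit was applied only to scores with the length trend in place. With the trend removed the NRF2 scores ran from -0.48 in AB209 to 0.71 in AB329, so the flag for AB329 depends on that setting.

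Of the 113 genes with values in the text, 26 had such a line; many of them were chosen because one line stood apart or after their values were seen, so this count restates that choice. AB145 was far below the rest for Arhgap8 (0 CPM), Cdh1 (90.1), Cldn3 (11.3), Crb3 (1.1), Epcam (39.9), Esrp1 (14.7), Gata3 (2.87), Grhl2 (9.98), Krt7 (19.9), Rab25 (7.57), Mapk8ip1 (2.48), Hoxb2 (0.256), Hoxb3 (0.23), Hoxb4 (0.128) and Hpn (0.0512). It was far above for Grik3 (89 CPM) and Itgb4 (2231). AB327 was far below for Cdkn2a (4.06 CPM), Cdkn2b (4.08), Mtap (16.9) and Isg15 (1.08) and far above for Cdkn1b (115). AB164 was far above for Lox (1209 CPM), AB209 far below for Lrch4 (0) and Mapk9 (8.65), and AB144 far below for Csnk2a1 (188), a gene with little spread.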

How the results depend on the processing

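AB145 was the farthest line under every scaling, prior count, TPM setting and omission of another line that was tried. Its mean distance was 99.5, 73.7 with log2(TPM + 1), 93.5 with log2(TPM + 0.1), 136 over all tested genes, and 98.8 to 105 with one other line left out. Variable genes numbered 2088 with a minimum of 1 CPM, 3691 with no minimum, 635 at a threshold of 1.5, and 872 to 1311 with a line left out. Constant genes numbered 2604 by the median absolute deviation, 330 at a threshold of 0.15, 1796 with the length trend removed, and 972 to 2050 with a line left out, the highest without AB209. The median SD was 0.50 with no minimum, 0.33 by the median absolute deviation and 0.34 to 0.42 with a line left out. Component 1 carried 37.8% to 58.2% and component 2 14.3% to 29.6% with a line left out. No pair of programs passed the adjusted threshold under the alternatives run. The 10 pairs of smallest p kept their sign, but not all kept their size. Without the 2 farthest lines r went from 0.948 to 0.930 for basal keratins with hypoxia and glycolysis genes. For junctions with collagens it went from -0.749 to -0.026. The mesenchymal and collagen pair, outside those 10, turned to -0.762 without AB145 and AB164. With a line left out the smallest adjusted p of the permutation test was 0.167 to 0.333. A lone pair at the smallest p that 6 lines allow would adjust to about that level, so those fits show no stability. Program score SDs moved by more than their jackknife error for 15 of 44 with either TPM setting. One library per line limits each value: counting error is small, but culture and library variation was not measured. No paired analysis was possible because the lines form a single group.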
